A study of Capra hircus with 8 samples.

Results

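The comparison set skin at month 6 against skin at month 3 in cashmere goats and in milk goats. It used 4 of the 8 libraries of the series: 1 library each of cashmere goats and milk goats at both months. The other 4 libraries, from months 9 and 12, entered only the estimate of spread and a few side views. The comparison was chosen, with earlier results of these data known, as the step in which transcripts of the hair shaft and inner root sheath begin to rise, so the direction of those genes below is a description and supports nothing. Cashmere goats grow a fine undercoat in season, and milk goats are a dairy breed. The tissue is given as skin, no treatment or genotype is recorded, and the sex of the animals and the number behind a library are not stated. The month is entered as an age in the labels but not called one in the design text, so season and age of the animals cannot be told apart. The protocol text also mentions embryos, which the tissue label does not. The p-values reflect only how the libraries vary, and each library may come from a single animal.

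A hair follicle alternates between growth (anagen), regression (catagen) and rest (telogen). In growth, matrix cells at the base of the follicle divide around the dermal papilla and then differentiate into the hair shaft and the inner root sheath that moulds it. The shaft is built of hair keratins, cross-linked by cysteine-rich keratin-associated proteins, and the inner root sheath is filled with trichohyalin and its own keratins. Transcripts of these structural proteins mark follicles that are making fibre.

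The skin origin of the 4 libraries was checked on defining markers. The epidermal keratins KRT5, KRT14, KRT1 and KRT10 had at least 44390 reads in each library, and the dermal collagen COL1A1 at least 32208. Skeletal muscle was almost absent, with 0 reads of MYLPF and 3 to 19 reads of ACTA1 and CKM. Depth was 7731607 reads in cashmere goats at month 3, 8152447 at month 6, 11333734 for month 3 of milk goats and 12841576 for month 6. Of 18815 genes listed, 14085 were tested. Levels are CPM (counts per 1000000 reads) scaled by TMM, and a count of 0 allows up to 3 reads, or 0.231 to 0.361 CPM in these libraries. On the first principal component of all 8 libraries (48.7% of the variance), the milk goat libraries of month 12 (-70.9) and month 3 (-51.8) lay apart from the other 6 (-7.4 to 46.2), so the milk goat step starts from a library that stands apart.

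No gene passed the test when the spread was estimated from all 8 libraries in a model of month and breed (edgeR quasi-likelihood F test, 3 residual degrees of freedom). The count was 0 higher (0.0% of genes tested) and 0 lower (0.0%) at an adjusted p of 0.05, and the smallest adjusted p was 0.457. At an unadjusted p under 0.05, 611 genes were higher at month 6 (4.34%) and 400 lower (2.84%). When the same model was fitted to the 4 libraries of months 3 and 6 alone, with breed as the pairing term and 1 residual degree of freedom, 668 genes were higher (4.74%) and 411 lower (2.92%) at an adjusted p of 0.05. That fit sets the step from month 3 to month 6 against how far the breeds disagree in it. The larger fit also counts how the breeds diverge at months 9 and 12 as spread. DESeq2 on all 8 libraries called 32 higher and 4 lower. Leaving the milk goat library of month 12 out of the 8-library fit gave 6 higher and 0 lower. Each count of list members that passed is to be read against the 4.74% of all genes that were higher and the 2.92% that were lower in the 4-library fit. Calls named below are from the 4-library fit unless stated, and none of them held with all 8 libraries in edgeR.

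As a description without a test, 210 genes (1.49%) were at least 2-fold higher at month 6 in both breeds and 28 (0.199%) at least 2-fold lower in both. The log2 ratio was above 0 in both breeds for 4847 genes (34.4%) and below 0 in both for 4898 (34.8%). The ratios of the 2 breeds correlated across genes with r = 0.53, where genes are not independent replicates. In cashmere goats 439 genes were at least 2-fold higher and 341 at least 2-fold lower, and in milk goats 544 and 149. At least 2-fold in opposite directions were 10 genes higher in cashmere and lower in milk goats, and 4 the reverse.

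**Figure D1:**
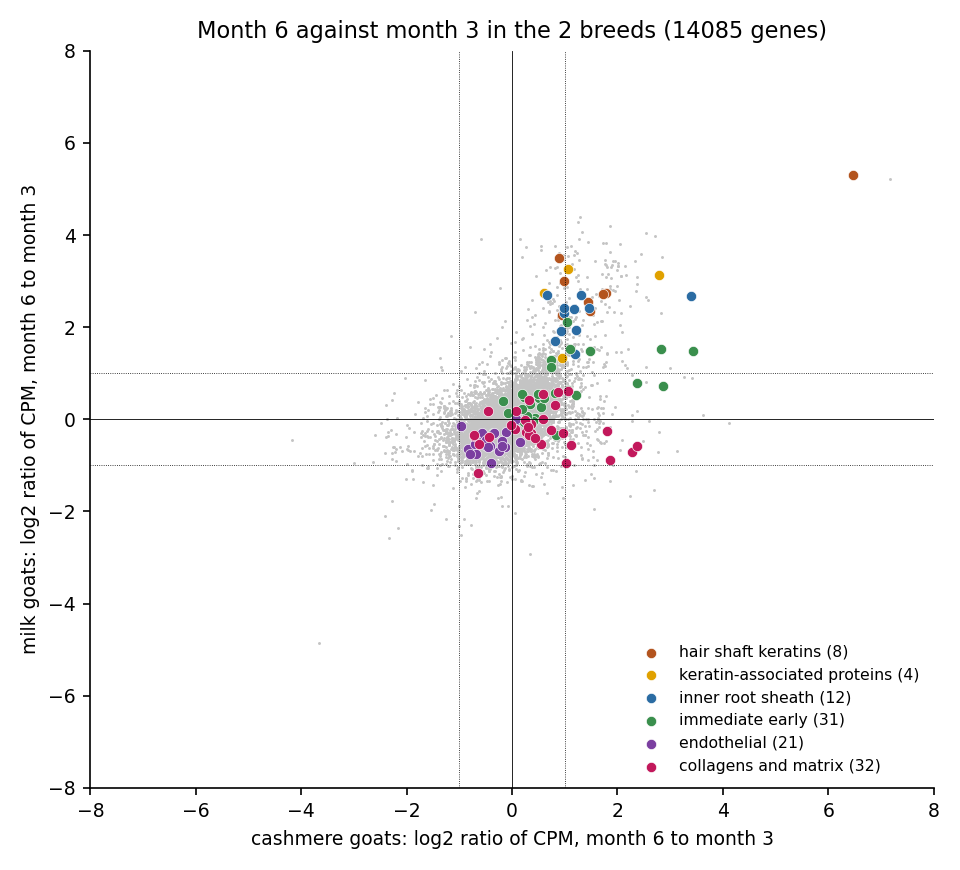
Log2 ratio of CPM at month 6 to month 3 in cashmere goats (horizontal axis) and in milk goats (vertical axis) for 14085 genes, with 6 gene lists coloured and dotted lines at 2-fold. Hair shaft, keratin-associated and inner root sheath genes lie in the upper right, endothelial genes mostly in the lower left, and collagens spread to the lower right.

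The hair genes KRT38 and TCHHL1 were the markers with which the comparison was chosen, and their values are given without a test. KRT38, a type I hair keratin, stood at 1.60 CPM in cashmere goats at month 3 and at 159 at month 6. In milk goats it went from 0.163 CPM (2 reads) to 13.9. Both month 6 libraries were therefore above both month 3 libraries, and cashmere goats were above milk goats at each month. With the prior count of 2 used for all folds here, the ratio was 88.2-fold in cashmere and 39.2-fold in milk goats. That prior count lowers a ratio that starts from 2 reads, so the folds of the breeds are not to be compared. Without it, the 95% counting interval was 58.8 to 182 in cashmere and 23.4 to 712 in milk goats. Outside these 4 libraries, the milk goat library of month 9 held 182.0 CPM of KRT38 after TMM scaling (factor 0.783). This was above every library of months 3 and 6, an order that depends on the scaling. As a share of all reads, its 1980 of 13899750 reads lay below the 1317 of 8152447 in cashmere goats at month 6. In cashmere goats KRT38 was lower again after month 6, at 26.2 CPM at month 9 and 4.3 at month 12. The milk goat library of month 12 held 0.264 CPM (3 reads).

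TCHHL1, a trichohyalin-like protein, stood at 79.2 CPM in cashmere goats at month 3 and 838 at month 6, and at 175 and 1120 CPM in milk goats. Here the milk goat level was the higher at both months, and the month 3 and month 6 libraries did not overlap. The ratios were 10.6-fold and 6.41-fold.

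A further 10 genes completed the higher side of the ranking by the smaller of the 2 breeds' ratios, among named genes with a mean of at least 5 CPM. KRTAP15-1, a keratin-associated protein, stood at 8.47 and 59.4 CPM in cashmere goats and at 2.20 and 20.7 CPM in milk goats. PRPH, the intermediate filament peripherin of peripheral neurons, differed by almost the same factor in both breeds, from 4.24 to 25.8 CPM and from 4.48 to 29.3 CPM. Its ratios were 5.86-fold and 6.30-fold (edgeR adjusted p = 0.000451 with 4 libraries), and it was also among the genes DESeq2 called with all 8. PLA2G2E, a secreted phospholipase A2, stood at 2.98 and 18.3 CPM in cashmere goats and at 0.407 and 9.78 CPM in milk goats. For KRTAP15-1, PRPH and PLA2G2E both month 6 libraries exceeded both month 3 libraries.

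The remaining genes of that ranking had ratios between 3.59-fold and 12.1-fold, and all passed in the 4-library fit. They were FAM26D, a member of the calcium homeostasis modulator family, the prohormone convertase PCSK1, the collagenase MMP1, the neuronal pentraxin NPTX2, VAT1L, the gastrin-releasing peptide gene GRP and the cilia-associated gene CFAP45. MMP1 stood at 1.37 and 11.0 CPM in cashmere goats and at 2.04 and 10.9 CPM in milk goats. NPTX2 stood at 10.8 and 43.1 CPM and at 4.07 and 40.3 CPM. The month 6 levels of both genes were thus close in the 2 breeds. PCSK1, VAT1L and MMP1 were also among the genes DESeq2 called with all 8 libraries, and FAM26D, NPTX2, GRP and CFAP45 were not.

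On the lower side, just 4 genes met the same rule. MUCL1, a small secreted mucin-like protein, stood at 22.1 CPM in cashmere goats at month 3 and 1.57 at month 6, and at 12.2 CPM and 0.231 CPM (3 reads) in milk goats. The month 6 to month 3 ratio in milk goats had a 95% counting interval of 0.00386 to 0.0564, and the log2 fold change was -4.42 ± 0.37 SE in the 4-library fit (edgeR adjusted p = 0.000976). CLMN, which encodes calmin, was 4.03-fold lower in cashmere goats and 2.46-fold lower in milk goats. ARMC12 was 2.67-fold and 2.31-fold lower, and SYDE2 2.06-fold and 2.20-fold lower. Of these 4 genes, DESeq2 with all 8 libraries called only MUCL1.

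All 8 tested hair shaft keratins had positive log2 ratios in both breeds, with a median of 1.46 in cashmere goats (2.75-fold) and 2.73 in milk goats (6.65-fold), against medians of 0.00 in both breeds over all genes tested. In the 4-library fit 8 of 8 passed, 3 of 8 passed at an unadjusted p in the 8-library fit, and 5 of 8 were at least 2-fold higher in both breeds. Without KRT38, 7 of 7 passed in the 4-library fit, 2 of 7 at an unadjusted p, and the medians were 2.72-fold and 6.63-fold. These counts restate how the comparison was chosen. KRT35, a keratin of the hair cortex, stood at 352 and 679 CPM in cashmere goats and at 75.8 and 363 CPM in milk goats. KRT32, of the hair cuticle, stood at 87.7 and 244 CPM and at 56.7 and 291 CPM. KRT82, another cuticle keratin, stood at 146 and 486 CPM and at 65.8 and 438 CPM. KRT84, a type II hair keratin, stood at 53.0 and 144 CPM and at 18.1 and 106 CPM. In each of these 4 genes the month 6 libraries were both above the month 3 libraries, and the month 3 level was lowest in milk goats.

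The remaining members KRT36, KRT39 and KRT40, named to complete the list, had ratios of 1.86-fold to 3.43-fold in cashmere goats and 6.66-fold to 11.3-fold in milk goats. Together the 8 shaft keratins took 0.0885% of reads at month 3 (exact binomial 95% interval 0.0865 to 0.0907) and 0.206% (0.203 to 0.209) at month 6 in cashmere goats. In milk goats the share was 0.0259% (0.0250 to 0.0269) and 0.143% (0.141 to 0.145). These intervals cover counting error only, since PCR copies of 1 molecule were not told apart. The share was 2.33-fold and 5.52-fold higher at month 6, and the cashmere share at month 3 lay between the milk goat shares of months 3 and 6. In bulk skin, more cells of a type and more RNA per cell cannot be told apart.

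**Figure D2:**
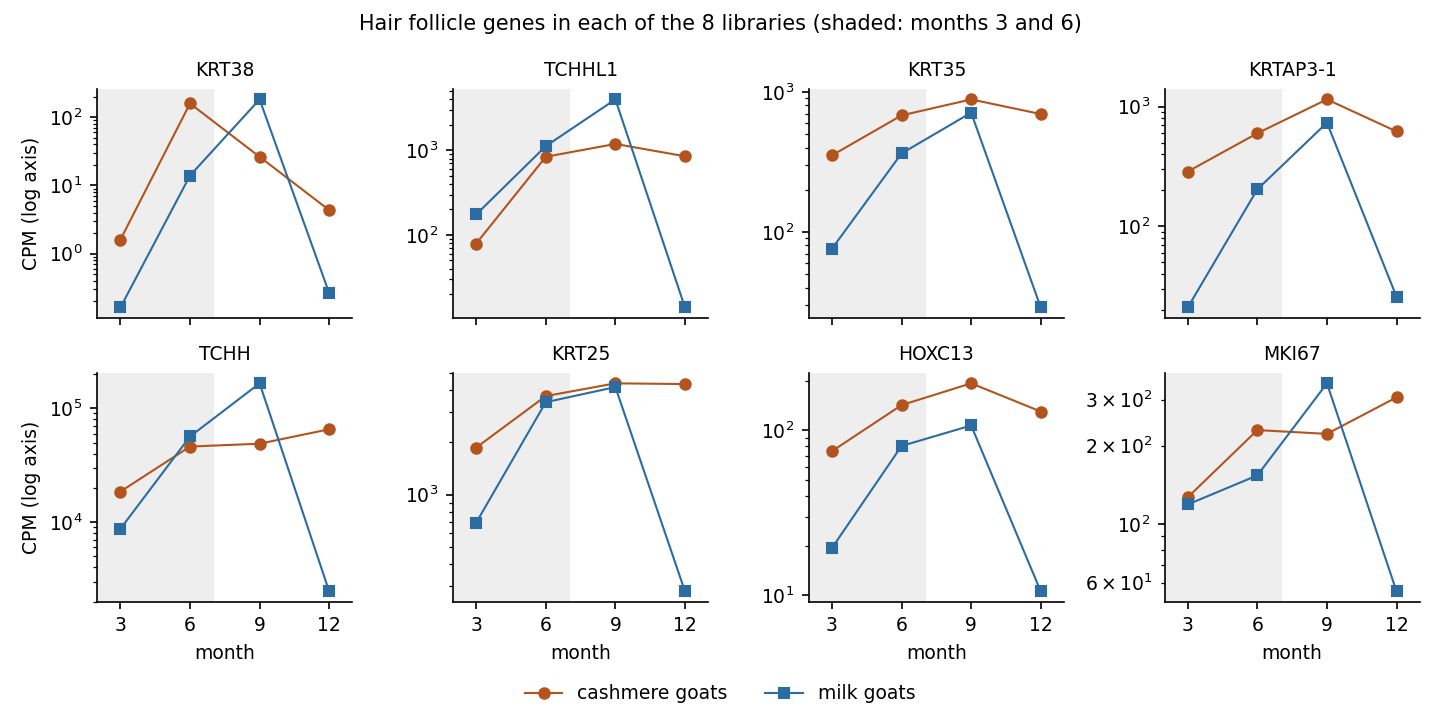
CPM (log axis) of 8 hair follicle genes in each of the 8 libraries by month, cashmere goats as circles and milk goats as squares, with 1 library per point and months 3 and 6 shaded. Each gene is higher at month 6 than at month 3 in both breeds, and the milk goat line starts lower for every gene but TCHHL1.

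All 4 tested keratin-associated proteins passed in the 4-library fit, with median ratios of 2.01-fold in cashmere and 7.63-fold in milk goats. KRTAP3-1 stood at 286 and 599 CPM in cashmere goats and at 20.9 and 203 CPM in milk goats, ratios of 2.09-fold and 9.64-fold. KRTAP11-1 stood at 444 and 674 CPM and at 39.6 and 265 CPM. KAP8 stood at 33.4 and 65.0 CPM and at 7.49 and 19.3 CPM. In these 3 genes the milk goat library of month 6 was still below the cashmere goat library of month 3, so the months overlapped across breeds while each breed was higher at month 6. Their share of reads was 1.63-fold higher at month 6 in cashmere and 6.76-fold in milk goats.

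A LOC symbol, given to genes without a name, was carried by 84 of the 210 genes at least 2-fold higher in both breeds. By gene order in the RefSeq annotation of assembly ARS1.2, 57 tested LOC genes had a keratin or keratin-associated gene as the nearest gene with a symbol on each side. This neighbourhood rule was chosen after the data were seen and says nothing of what a gene encodes. Of the 57, 55 had positive ratios in both breeds, 38 were at least 2-fold higher in both (66.7%, against 6.30% of all 1334 LOC genes tested), and 48 passed as higher and 0 as lower in the 4-library fit. Their median ratio was 2.30-fold in cashmere and 9.96-fold in milk goats, and the milk ratio was the larger in 56 of 57. The gene with the largest cashmere ratio of all genes tested was among them: LOC102176161, between KRTAP3-1 and KRT38, had 16 reads in cashmere goats at month 3 and 2428 at month 6, and 10 and 484 in milk goats. Hair keratin and keratin-associated genes have near-identical copies, and reads may be split or shared among copies by the authors' counting, so values of single members are less certain than those of the class.

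The second count table names products on another gene set. It held more shaft keratins and keratin-associated proteins than the first, but 6 inner root sheath genes against 12. It comes from the same libraries and is therefore no independent check. Its classes were taken from product names after the data were seen. The 17 shaft keratins had positive ratios in both breeds, with medians of 2.17-fold in cashmere and 6.73-fold in milk goats. The 27 tested keratin-associated proteins had medians of 2.85-fold and 10.7-fold, and the 6 inner root sheath genes 2.56-fold and 6.19-fold. The 4-library fit there passed 7 of 17, 13 of 27 and 5 of 6 as higher, against 2.0% of 14994 genes tested. At least 2-fold higher in both breeds were 11, 22 and 5, against 1.32% of all genes. The milk ratio exceeded the cashmere ratio in 16 of 17, 26 of 27 and 5 of 6. The 8-library edgeR fit there passed 0 genes at an adjusted p of 0.05, and 626 were higher and 390 lower at an unadjusted p under 0.05.

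Keratin 38 of the second table went from 49.1 to 736 CPM in cashmere goats and from 7.34 to 111 CPM in milk goats. Its log2 ratios of 3.90 and 3.90 were smaller than the 6.46 and 5.29 of KRT38 in the first table, where the month 3 counts were 14 and 2 reads. Trichohyalin-like 1 differed less between the tables, with log2 ratios of 3.58 and 2.79 in the second and 3.40 and 2.68 in the first.

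**Figure D3:**
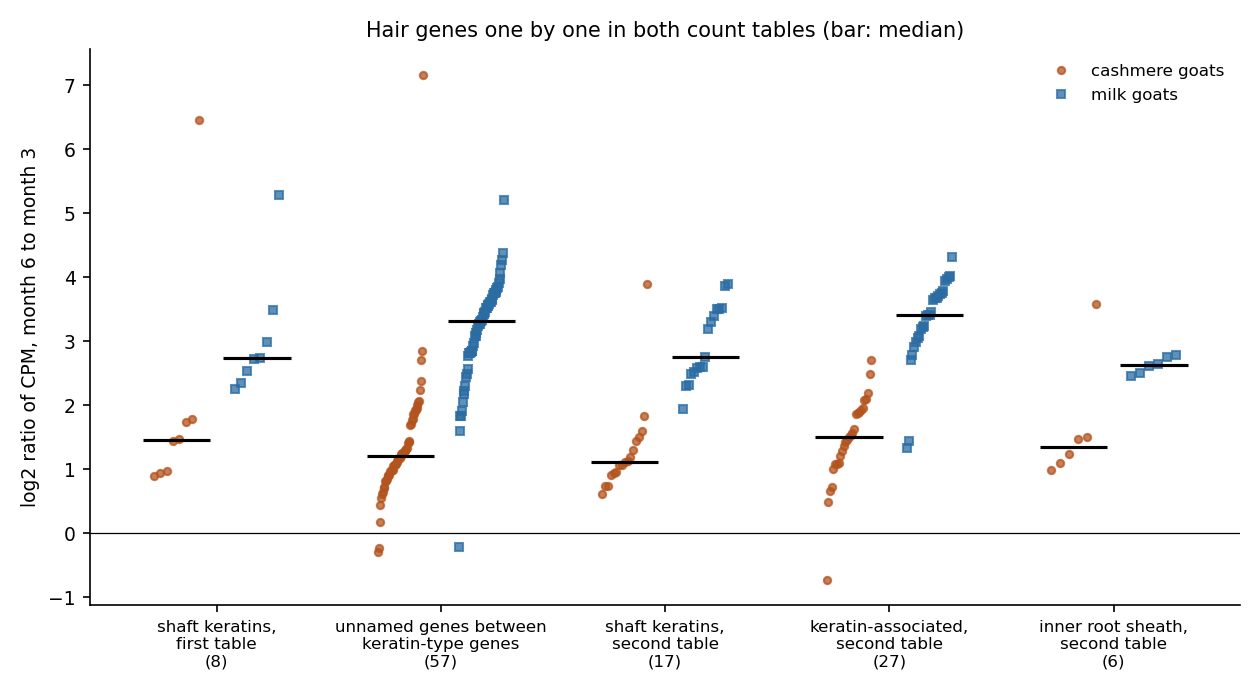
Log2 ratio of CPM at month 6 to month 3 for each gene of 5 hair gene classes, cashmere goats as circles and milk goats as squares, sorted within a class, with a bar at the median and the number of genes in brackets. Medians lie between 1.12 and 1.51 in cashmere goats and between 2.63 and 3.42 in milk goats.

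The inner root sheath list held the most abundant transcript of the hair lists. TCHH, trichohyalin, stood at 18560 and 46120 CPM in cashmere goats and at 8733 and 56530 CPM in milk goats, so that milk goats were below cashmere goats at month 3 and above them at month 6. KRT25 stood at 1866 and 3691 CPM and at 691 and 3404 CPM. KRT27 stood at 1318 and 2971 CPM and at 403 and 2116 CPM. Both are type I keratins of the inner root sheath, and for TCHH, KRT25 and KRT27 the months did not overlap. TGM3, the transglutaminase that cross-links trichohyalin and keratins, stood at 127 and 294 CPM and at 64.5 and 249 CPM. It was named after its values were seen, and it is also among the genes DESeq2 called with all 8 libraries.

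Of the 12 members tested, 11 passed as higher in the 4-library fit and 11 were positive in both breeds. The exception in both counts was GATA3, a transcription factor also expressed in epidermis, at 265 and 281 CPM and at 229 and 228 CPM. The list's median ratio was 2.11-fold in cashmere and 5.09-fold in milk goats. Without TCHHL1, 10 of 11 passed and the medians were 1.98-fold and 4.93-fold, and these counts too restate the choice of the comparison. The list's share of all reads went from 2.56% to 5.61% in cashmere goats and from 1.13% to 6.50% in milk goats. Most of that share was TCHH, whose levels are given above. The summed level of the list was 22630 and 55050 CPM in cashmere goats and 10440 and 64280 CPM in milk goats.

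Regulators of the hair matrix and cortex were divided. Of 27 tested, 19 were positive in both breeds, 14 passed as higher and 1 as lower, and the median ratio was 1.38-fold in cashmere and 1.47-fold in milk goats. The 4 most abundant per length were GATA3, TP63, CTNNB1 and OVOL1. TP63, the master regulator of stratified epithelia, stood at 438 and 438 CPM and at 370 and 364 CPM. CTNNB1, beta-catenin, stood at 303 and 387 CPM and at 262 and 315 CPM. OVOL1, a zinc finger transcriptional repressor, stood at 127 and 218 CPM and at 71.7 and 170 CPM. It was the one of the 4 that passed (edgeR adjusted p = 0.00558 with 4 libraries). Of the matrix markers, HOXC13, which drives hair keratin genes, was 1.90-fold and 4.12-fold higher, MSX2 1.89-fold and 3.18-fold, and LEF1, a Wnt effector, 1.39-fold and 2.29-fold.

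FOXN1, FOXQ1 and FOXI3 were named after their values were seen. FOXN1, the factor lost in nude mice, stood at 143 and 234 CPM in cashmere goats and at 38.5 and 195 CPM in milk goats. FOXQ1, mutated in satin mice, stood at 21.3 and 62.7 CPM and at 22.9 and 96.8 CPM, with month 3 levels close in the breeds, and DESeq2 called it with all 8 libraries. FOXI3, a factor of early follicle development, was the member that passed as lower, at 36.1 and 11.2 CPM and at 27.1 and 19.5 CPM.

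Structural and adhesion proteins of the fibre and epidermis divided into 12 of 26 that passed as higher, 0 that passed as lower and 14 that did not pass. Their median ratio was 1.24-fold in cashmere and 1.60-fold in milk goats, and 19 of 26 were positive in both breeds. The abundant members shared with epidermis differed little: DSP, desmoplakin, stood at 7696 and 8135 CPM and at 7496 and 7869 CPM, and DSG1, desmoglein 1, at 1427 and 1332 CPM and at 1087 and 1250 CPM. CST6, a cysteine protease inhibitor, stood at 1614 and 2028 CPM and at 1144 and 1890 CPM. CDSN, corneodesmosin, passed at 436 and 679 CPM and at 243 and 419 CPM. S100A3, a calcium-binding protein of the hair cuticle named after its values were seen, stood at 41.9 and 148 CPM and at 10.8 and 97.5 CPM.

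Cell division genes were higher in 30 of 32 cases in both breeds, with a median of 1.64-fold in cashmere and 1.33-fold in milk goats. Unlike the hair lists, the cashmere median was the larger. In the 4-library fit 10 of 32 passed as higher and 0 as lower. TOP2A, a topoisomerase of dividing cells, stood at 93.7 and 160 CPM in cashmere goats and at 114 and 153 CPM in milk goats. RRM2, a ribonucleotide reductase subunit, stood at 40.6 and 80.7 CPM and at 33.2 and 53.9 CPM, and both TOP2A and RRM2 passed. The proliferation marker MKI67 stood at 127 and 229 CPM and at 119 and 154 CPM. PCNA and MCM3, replication factors, had ratios of 1.11-fold to 1.38-fold and did not pass.

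**Figure D4:**
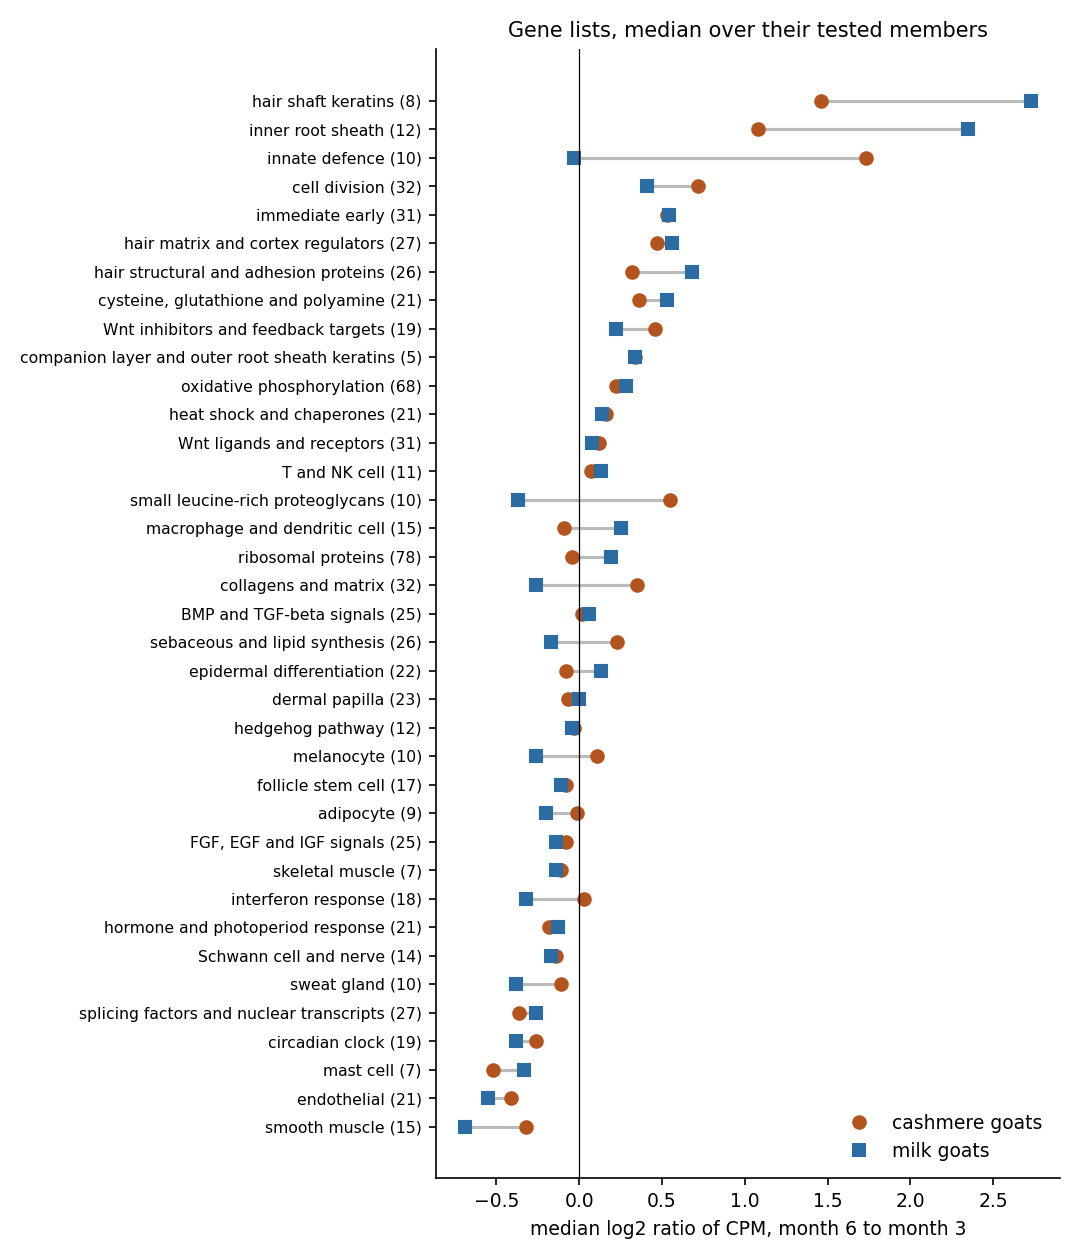
Median log2 ratio of CPM at month 6 to month 3 over the tested members of each gene list with at least 5 members, cashmere goats as circles and milk goats as squares joined by a line, with the number of members in brackets. Shaft keratins and inner root sheath genes stand at the top with the larger value in milk goats, and endothelial and smooth muscle genes at the bottom.

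By their medians, signalling lists and the lists of dermal papilla and follicle stem cell genes stayed near the centre of all genes, except for Wnt inhibitors and feedback targets. Medians lay between -0.14 and 0.12 on the log2 scale in both breeds for Wnt ligands and receptors, the hedgehog pathway, BMP and TGF-beta signals, FGF, EGF and IGF signals, dermal papilla genes and follicle stem cell genes. In each of those 6 lists no more than 2 members passed in either direction. These were at most 6.45% of a list as higher and 8.33% as lower, against 4.74% and 2.92% of all genes. The shares of reads of these 6 lists at month 6 were 0.691-fold to 0.995-fold those of month 3 in cashmere goats. In milk goats they were 0.77-fold to 1.01-fold. Follicle stem cell genes had share ratios of 0.691 and 0.786, so their summed reads were lower while their medians were near 0. Of 19 Wnt inhibitors and feedback targets, 11 were positive in both breeds and 5 passed as higher, with medians of 1.38-fold in cashmere and 1.16-fold in milk goats. SFRP1, a secreted Wnt antagonist, stood at 334 and 605 CPM and at 240 and 522 CPM. SHISA2, which holds back the maturation of FGF and Wnt receptors, stood at 108 and 195 CPM and at 37.6 and 85.5 CPM, and both passed. APCDD1, a Wnt inhibitor linked to hair loss, was 1.50-fold and 1.37-fold higher and did not pass (edgeR adjusted p = 0.0539 with 4 libraries), and KREMEN1 was 1.11-fold and 1.08-fold.

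Keratinocyte genes of the epidermis, some of which the follicle also expresses, differed less. Of 22 epidermal differentiation genes, 4 passed as higher (18.2%, against 4.74% of all genes) and 0 as lower, with medians of -0.08 in cashmere goats and 0.13 in milk goats. KRT10, a keratin of the upper epidermis, stood at 9103 and 7290 CPM and at 8701 and 8029 CPM, and KRT1, its partner, at 8146 and 7415 CPM and at 9017 and 8844 CPM. SBSN, suprabasin, stood at 3526 and 2479 CPM and at 3740 and 3885 CPM. KRT77 stood at 3176 and 1154 CPM and at 2952 and 2293 CPM, which is 2.75-fold and 1.29-fold lower, and did not pass. The basal keratins KRT14 and KRT5 were 1.27-fold to 1.60-fold higher at month 6 and did not pass either.

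The most abundant genes of the dermal matrix had ratios of opposite sign in the breeds. COL1A1, the main fibrillar collagen of skin, stood at 3687 and 17750 CPM in cashmere goats and at 9930 and 6076 CPM in milk goats. COL1A2, its partner chain, stood at 1500 and 7796 CPM and at 3764 and 2535 CPM. COL3A1 stood at 1763 and 6425 CPM and at 3948 and 2126 CPM, and SPARC, a collagen-binding matrix protein, at 1007 and 3494 CPM and at 2030 and 1703 CPM. The 4 genes were thus 3.47-fold to 5.19-fold higher at month 6 in cashmere goats, and 1.19-fold to 1.86-fold lower in milk goats. None of the 4 passed in either fit. The cashmere goat library of month 6 was the highest of the 8 for each of them, and without it the log2 fold change in the 8-library fit was -0.43 for COL1A1, -0.25 for COL1A2 and -0.50 for COL3A1. Leaving out the cashmere goat library of month 3 instead gave -0.40 for COL3A1 and -0.007 for SPARC.

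Of 32 collagen and matrix genes, 25 had a positive ratio in cashmere goats and 8 in milk goats, 18 were higher in the former and lower in the latter, 7 were higher in both and 6 lower in both. In the 4-library fit 2 passed as higher (6.25%) and 0 as lower. The list took 1.58% of reads at month 3 and 4.24% at month 6 in cashmere goats, and 2.94% and 1.92% in milk goats. Small leucine-rich proteoglycans, which bind collagen fibrils, had 7 of 10 positive in cashmere goats and 1 of 10 in milk goats, yet their share of reads was lower at month 6 in both breeds, from 0.212% to 0.188% and from 0.215% to 0.172%. DCN, decorin, stood at 1096 and 791 CPM and at 830 and 787 CPM, and LUM, lumican, at 347 and 467 CPM and at 507 and 386 CPM. PODN was 1.32-fold and 1.13-fold lower, while ASPN was 2.72-fold higher in cashmere goats and 1.30-fold lower in milk goats. Medians on the log2 scale were 0.35 and -0.26 for collagens and matrix, and 0.55 and -0.37 for the proteoglycans. With 1 library per breed and month, the difference of the step between the breeds was not tested.

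**Figure D5:**
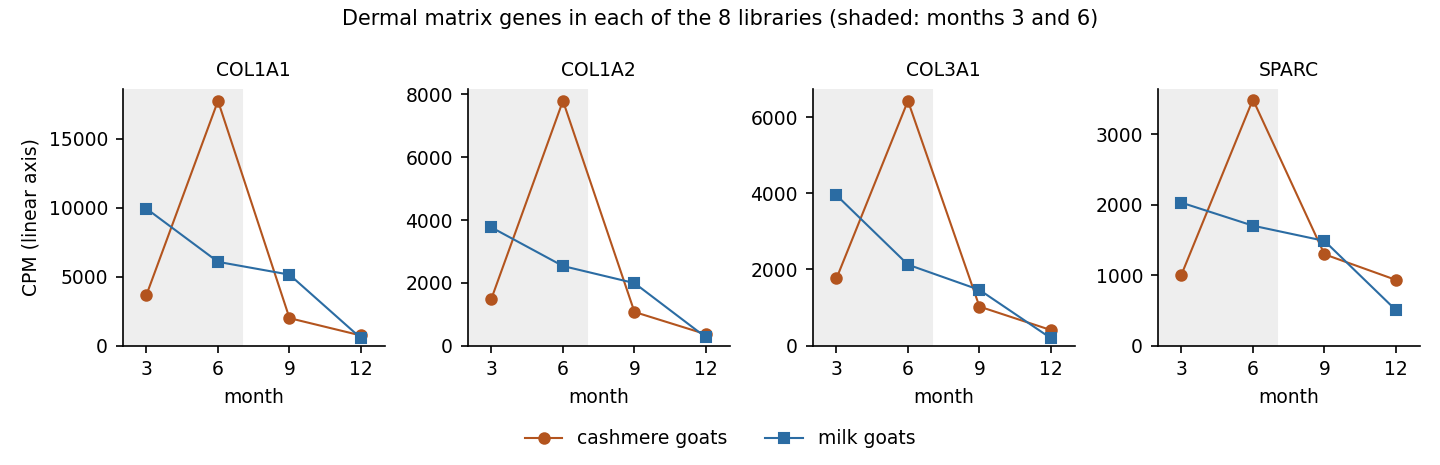
CPM (linear axis from 0) of 4 dermal matrix genes in each of the 8 libraries by month, cashmere goats as circles and milk goats as squares, with 1 library per point and months 3 and 6 shaded. The cashmere goat library of month 6 is the highest point in each panel, while the milk goat values are lower at month 6 than at month 3.

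Of 21 endothelial genes, 19 had negative ratios in both breeds, 6 passed as lower (28.6%, against 2.92% of all genes) and 0 as higher, and the medians were -0.41 in cashmere goats and -0.55 in milk goats. PECAM1, an adhesion molecule of endothelium, stood at 221 and 135 CPM and at 231 and 159 CPM, and VWF, von Willebrand factor, at 172 and 130 CPM and at 263 and 137 CPM. Both passed, with no overlap between months. PLVAP, a component of capillary fenestrae, stood at 98.5 and 85.7 CPM and at 106 and 76.4 CPM, and ENG, endoglin, at 54.3 and 60.0 CPM and at 66.9 and 47.6 CPM. The summed level of the list went from 982 to 716 CPM in cashmere goats and from 1201 to 782 CPM in milk goats.

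Smooth muscle genes had negative ratios in both breeds in 10 of 15 cases, with 7 that passed as lower (46.7%) and 0 as higher. MYH11, smooth muscle myosin, stood at 1383 and 827 CPM and at 2121 and 1140 CPM and passed. ACTA2, smooth muscle actin, stood at 413 and 504 CPM and at 668 and 481 CPM, CALD1, caldesmon, was 1.09-fold and 1.29-fold lower, and TAGLN, transgelin, had ratios of 1.02 and 0.851. The lower levels of these 2 lists were measured in the same libraries in which hair genes took a larger share of reads. The part of cell composition in either result was not tested. Mast cell genes had negative ratios in both breeds in 7 of 7 cases, at summed levels of 34.4 to 63.2 CPM, and 0 passed.

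Of 10 innate defence genes tested, 8 had positive ratios in cashmere goats and 5 in milk goats, and the medians were 1.73 and -0.03. With a filter of 10 CPM in 2 libraries the medians were 0.75 and 0.01. The list's share of reads was 2.69-fold higher at month 6 in cashmere and 2.04-fold in milk goats, and the difference between the breeds was not tested. In milk goats the summed level of the tested members went from 84.85 to 188.6 CPM. The gain of LYG2 there, given below, was larger than this gain. S100A7A, a calcium-binding protein of inflamed epidermis, stood at 4.24 and 77.1 CPM in cashmere goats and at 2.69 and 2.54 CPM in milk goats. PGLYRP1, a peptidoglycan recognition protein, stood at 52.4 and 88.4 CPM and at 30.5 and 19.6 CPM. Neither of these passed, and for both the cashmere goat library of month 6 was the highest of the 8. LYG2, a goose-type lysozyme, stood at 59.0 and 200 CPM and at 23.9 and 137 CPM, and S100A8, a calgranulin, at 1.60 and 17.0 CPM and at 2.44 and 4.78 CPM. LYG2 and S100A8 were higher in both breeds and passed.

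Immediate early genes encode transcription factors and regulators that respond within minutes to stimuli. Of 31 tested, 24 were positive in both breeds, 15 passed as higher (48.4%) and 0 as lower, and 13 passed as higher at an unadjusted p in the 8-library fit. The medians were 1.44-fold in cashmere and 1.45-fold in milk goats. The 4 most abundant per length had small ratios: IER3 was 1.47-fold and 1.20-fold higher, JUN 1.36-fold and 1.02-fold, and JUND and KLF4 had ratios between 0.932 and 1.31. Members named after their values were seen included FOS, at 12.5 and 90.2 CPM in cashmere goats and 16.6 and 47.9 CPM in milk goats, and FOSB, at 4.12 and 46.2 CPM and at 6.68 and 19.0 CPM. DESeq2 with all 8 libraries called FOS and none of the other members named here. ATF3 was 2.78-fold and 2.77-fold higher, and JUNB 1.67-fold and 2.19-fold. These genes also respond to tissue handling, on which the labels give no timing, and its part was not tested.

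Genes of cysteine, glutathione and polyamine metabolism passed as higher in 10 of 21 cases, with 0 lower. Their medians were 1.28-fold in cashmere and 1.45-fold in milk goats. MT4, a metallothionein of stratified epithelia, stood at 39.0 and 70.7 CPM and at 4.97 and 33.2 CPM. TXN, thioredoxin, was 1.45-fold and 1.38-fold higher and GPX2, a glutathione peroxidase, 1.47-fold and 1.30-fold, and all 3 passed. SAT1, which acetylates polyamines, had ratios of 1.25 and 1.05 and did not pass.

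Genes of hormone and photoperiod response formed a list of 21, of which 12 had negative ratios in both breeds, 3 passed as lower and 1 as higher. The 4 most abundant per length, RXRA, VDR, THRA and TSC22D3, had log2 ratios between -0.63 and 0.39, and none passed. Among those that passed were PRLR, NR3C1 and DIO3, named after their values were seen. PRLR, the receptor of prolactin, a hormone that follows day length, stood at 291 and 199 CPM in cashmere goats and at 258 and 164 CPM in milk goats. NR3C1, the glucocorticoid receptor, stood at 170 and 120 CPM and at 218 and 143 CPM. DIO3, which inactivates thyroid hormone, stood at 11.6 and 28.2 CPM and at 5.05 and 12.9 CPM. PRLR and NR3C1 were lower in both breeds with no overlap between months.

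Oxidative phosphorylation, splicing and clock genes had small medians of the same sign in both breeds. Of 68 oxidative phosphorylation genes, 53 had positive ratios in both breeds, with medians of 0.22 and 0.28 on the log2 scale, and 3 passed as higher (4.41%, against 4.74% of all genes) and 1 as lower (1.47%, against 2.92%), so the passes were no more frequent than over all genes. Of 27 splicing factors and nuclear transcripts, 24 had negative ratios in both, with medians of -0.36 and -0.26, and 1 passed as lower (3.70%). Of 19 circadian clock genes, 14 had negative ratios in both, with medians of -0.26 and -0.38, and 3 passed as lower (15.8%) and 1 as higher (5.26%). The share of all genes with 1 sign in both breeds, given above, is the background to these counts. Scaling by library totals would shift the median of all genes by -0.15 in cashmere goats and -0.10 in milk goats, so list medians of that size depend on the scaling. The other lists of skin cell types and glands (sebaceous and sweat glands, melanocytes, adipocytes, nerve, macrophages, T cells) and of interferon, heat shock and ribosomal genes had medians between -0.38 and 0.25, with at most 2 members that passed in either direction. These lists differ in length, and in the short sweat gland list 2 of 10 genes passed as lower, against 2.92% of all genes. In that list 1 gene passed as higher, 6 of 10 had negative ratios in both breeds and 1 had positive ratios in both. The sweat gland share of reads at month 6 was 0.689-fold that of month 3 in cashmere and 0.665-fold in milk goats.

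The difference of the step between the breeds was not tested. The milk goat median exceeded the cashmere goat median for shaft keratins, keratin-associated proteins, inner root sheath genes and structural proteins, and the cashmere median was larger for cell division genes, collagens and innate defence. At month 6 the summed level of the shaft keratins was 2024 CPM in cashmere goats and 1416 CPM in milk goats, against 784 and 239.5 CPM at month 3. At month 9 it was 1995 and 2337 CPM after TMM scaling, but the share of reads was 0.2% in cashmere and 0.183% in milk goats. The order of the breeds at month 9 thus depends on the scaling. In the second table the shares at month 9 were 3.4% and 2.27%. In the second table, with 17 shaft keratins, the share of reads at month 9 was 1.21-fold that at month 6 in cashmere and 1.41-fold in milk goats, against 0.969-fold and 1.28-fold in the first table. For the 4 keratin-associated proteins of the first table the share at month 9 was 2.65-fold that at month 6 in cashmere and 2.29-fold in milk goats. For the 29 of the second table it was 1.75-fold and 1.83-fold.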

How the data were processed

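Skin RNA of 2 goat breeds at 4 months was sequenced as directional paired-end libraries of polyadenylated RNA, per the labels' protocols. The 3 tables of the whole series were used. The authors deposited raw read counts per gene for 18815 genes, raw counts on another gene set of 20780 genes, and FPKM for the first gene set. Per the submitters' processing notes Bowtie2 was used. Its version and role, the counting tool and the genome build were not given in these labels. Breed and month in the column names paired the 2 count tables, and profiles over 12931 shared symbols placed each of the 8 columns with its namesake. The table header calls cashmere goats by the word rong.

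For the first table edgeR 4.0.16 (R 4.3.3) was run on the counts: filterByExpr on breed (14085 genes), TMM factors, quasi-likelihood F tests for month 6 minus month 3 in a model of month and breed over 8 libraries, and Benjamini-Hochberg adjustment at 0.05. The same model was fitted to the 4 libraries alone. Per-breed log2 ratios used log2 CPM with a prior count of 2, and folds in the text are 2 to the power of these ratios. Each is 1 library against 1. Counting intervals are those of the ratio without the prior count. FPKM was used to rank genes by level per length and in limma 3.58.1 on log2(FPKM + 1) and log2(FPKM + 0.1). DESeq2 1.42.0, other scalings and filters, a model without breed, the second table and leaving out 5 single libraries were the alternatives. The edgeR fits were tested on simulated data.

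The comparison, the 40 gene lists and the rules were chosen with earlier results of these data known. Genes were named by rule: no LOC symbol, a mean of at least 5 CPM and at least 2-fold the same way in both breeds, ranked by the smaller ratio, up to 12 a direction. In each list described in detail the 4 members with the highest mean FPKM were named, plus fixed markers. Others are said to be chosen after their values were seen. No sequences were printed. The result of 1 gene is not reported here.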

Additional observations from a re-analysis of the deposited data

Results flagged for a closer look

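Of the named genes, 4 had ratios of opposite sign in the 2 breeds by at least 0.5 on the log2 scale each, and the difference was not tested, since each breed and month has 1 library. The log2 ratio of month 6 to month 3 in cashmere goats exceeded that in milk goats by 2.98 for COL1A1, by 2.95 for COL1A2 and by 2.76 for COL3A1, the fibrillar collagens of the dermis. For PGLYRP1, a peptidoglycan recognition protein, the difference was 1.38. In each of the 4 genes the cashmere goat ratio was positive and the milk goat ratio negative.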

How the results depend on the processing

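The count of genes past an adjusted p of 0.05 depended on the fit. From 0 higher and 0 lower with 8 libraries in edgeR, it went to 32 and 4 with DESeq2 and to 668 and 411 with the 4 libraries alone, and leaving out 1 library gave 0 to 6 higher over the 5 libraries left out in turn (those of months 3 and 6, and milk goats at month 12; the other 3 were not left out), with the 6 reached without the milk goat library of month 12. The 4-library fit has 1 residual degree of freedom and could not be fitted with a test after a library was left out. At an unadjusted p under 0.05 the counts of 611 higher and 400 lower became 365 and 603 with library totals, 1836 and 1709 with 4 libraries, and 222 and 144 without the breed term. Leaving out each of these 5 gave 185 to 1192 higher and 72 to 865 lower. Without one of the libraries of months 3 and 6 the count higher was 185 to 316, and without milk goats at month 12 it was 1192. Genes at least 2-fold higher in both breeds numbered 101 on the FPKM scale against 210, and genes lower 59 with library totals, 71 with no filter, 6 with the strict filter, 17 with a prior count of 5 and 6 on the FPKM scale, against 28. In the second table the share of reads was 1.84-fold and 8.67-fold higher at month 6 in cashmere and milk goats for shaft keratins, 2.14-fold and 10.9-fold for keratin-associated proteins, and 2.27-fold and 5.99-fold for inner root sheath genes, where other genes make up the classes. Of 99 named genes, 76 kept their direction under every alternative run, and 23 did not. With library totals the log2 fold change was -0.056 for DSG1, -0.049 for DSP, -0.084 for GATA3, -0.009 for JUND and -0.08 for RXRA. In limma at pseudocounts of 1 and 0.1 it was -0.005 and -0.005 for DSG1, -0.016 and -0.017 for GATA3, and -0.006 and -0.006 for RXRA, and for LUM it was 0.017 with 4 libraries. Leaving out each of these 5 in turn, the log2 fold change of the 8-library fit ran from -0.42 to 0.23 for ACTA2, from -0.27 to 1.32 for ASPN, from -0.69 to 0.15 for CALD1, from -0.43 to 1.92 for COL1A1, from -0.25 to 1.97 for COL1A2 and from -0.50 to 1.50 for COL3A1. It ran from -0.61 to 0.074 for DCN, from -0.20 to 0.29 for DSG1, from -0.51 to 0.17 for ENG, from -0.19 to 0.25 for GATA3, from -0.13 to 0.36 for JUND and from -0.45 to 0.35 for KRT1. The range was from -0.56 to 0.17 for KRT10, from -0.62 to 0.70 for LUM, from -0.93 to 1.0 for PGLYRP1, from -0.15 to 0.25 for RXRA, from -0.45 to 4.46 for S100A7A and from -0.029 to 0.42 for SAT1. Values lay from -0.63 to 0.19 for SBSN, from -0.007 to 1.58 for SPARC, from -0.32 to 0.12 for TAGLN and from -0.032 to 0.008 for TP63. The direction turned without the cashmere goat library of month 6 for ASPN, COL1A1, COL1A2, COL3A1, GATA3, JUND, LUM, PGLYRP1 and SAT1, and without that of month 3 for CALD1, COL3A1, DCN, KRT1, KRT10, S100A7A, SBSN and SPARC. It turned without the milk goat library of month 6 for ACTA2, CALD1, DSG1, ENG, KRT1, TAGLN and TP63, and without that of month 3 for ACTA2, GATA3, LUM and RXRA. The cause was not tested. Depth limits genes with few reads at month 3, such as KRT38 in milk goats.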
